A study of Homo sapiens with 6 samples.

Results

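The 10 genes described here encode enzymes that modify heparan sulphate: the N-sulphotransferases NDST1 and NDST2, the epimerase GLCE, the 2-O-sulphotransferase HS2ST1, the 6-O-sulphotransferases HS6ST1 and HS6ST2, the 3-O-sulphotransferases HS3ST1 and HS3ST3A1, and the extracellular 6-O-endosulphatases SULF1 and SULF2. They were taken by name from the 927 genes that the arrays' probe sets (groups of probes for a transcript) could be matched to. Each of the 10 had 1 probe set, of 1259 in all.

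Expression was measured on glycogene arrays in HCT116, a colorectal cancer cell line with microsatellite instability. The +DOX group was 3 arrays from cells given doxycycline and activin A, and the -DOX group was 3 arrays from the same kind of cells given activin A without doxycycline. The titles name both as ACVR2 WT cells, so doxycycline was meant to switch on the wild-type activin receptor gene ACVR2, and activin A is the ligand of that receptor. The source labels list AIM2, ACVR2 and TGFBR2 as inducible without choosing between them, and the design text speaks of double stable transfectants, without saying how many clones were used or for how long cells were induced. Every array carried activin A, and no +DOX array lacked the inducible construct. Effects of the drug and of the receptor therefore cannot be told apart. The labels do not say that the replicates came from separate cultures, so a p-value reflects the scatter of these 6 arrays and that scatter may be technical.

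Heparan sulphate is a long sugar chain on cell surface and matrix proteins, and its sulphate groups decide which growth factors, morphogens and chemokines it holds. Modification begins when an NDST enzyme replaces acetyl groups by sulphate on glucosamine, then the epimerase turns glucuronic into iduronic acid, and O-sulphotransferases add sulphate at the 2-O, 6-O and 3-O positions. Outside the cell, SULF enzymes take 6-O-sulphates off again, which in epithelial cells is known to alter Wnt and fibroblast growth factor signalling.

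The probe set for ACVR2A, the gene the titles name, was not higher with doxycycline: it read 8.15, 8.02 and 8.08 on the +DOX arrays and 8.25, 8.07 and 8.70 on the -DOX arrays, a difference of -0.26 log2 units (limma, adjusted p = 0.710). That value was -0.08 without replicate 3 and -0.39 without replicate 2 of the -DOX group. Whether its probes lie within the introduced sequence was not tested. Replicate 3 of the -DOX group stood apart from the other 5 arrays, with correlations across probe sets of 0.982 to 0.991 against 0.995 to 0.999 among those 5. A probe set's SD had a median of 0.0457 log2 units in the +DOX group and 0.0902 in the -DOX group. Of 12 colon epithelium markers 3 had a probe set, with mean levels of 7.28 to 8.74 (MUC1 the highest, MUC2 the lowest), and of 15 markers of other cells 7 had one, from LUM, the lowest, to CD34 at 7.55. The median of the epithelial markers ran from 7.24 to 7.35 on the +DOX arrays and from 7.26 to 7.34 on the -DOX arrays, and that of the other markers from 6.98 to 7.06 on the +DOX arrays and from 7.01 to 7.08 on the -DOX arrays. The table has no detection calls, so which of these are expressed is not known.

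Levels are RMA values on a log2 scale, and the difference is always +DOX minus -DOX. A probe set's brightness depends on its probes as well as on its transcript, so levels are given for each enzyme without an order of transcript amounts between enzymes. Over all 1259 probe sets the mean level had a lower quartile of 6.88, a median of 7.63 and an upper quartile of 9.31. The probe sets of HS6ST1 (mean over the 6 arrays 9.76), HS6ST2 (9.97) and HS3ST1 (10.41) lay above the upper quartile. Those of NDST1 (9.04), NDST2 (8.39), GLCE (8.54), HS2ST1 (8.20) and SULF2 (8.92) lay between the median and the upper quartile. The probe sets of HS3ST3A1 (6.39) and SULF1 (6.34) lay under the lower quartile, where the share of background is unknown, so that a small difference there says little about the transcript. Hence every modification step had at least 1 probe set above the median of the array.

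**Figure D1:**
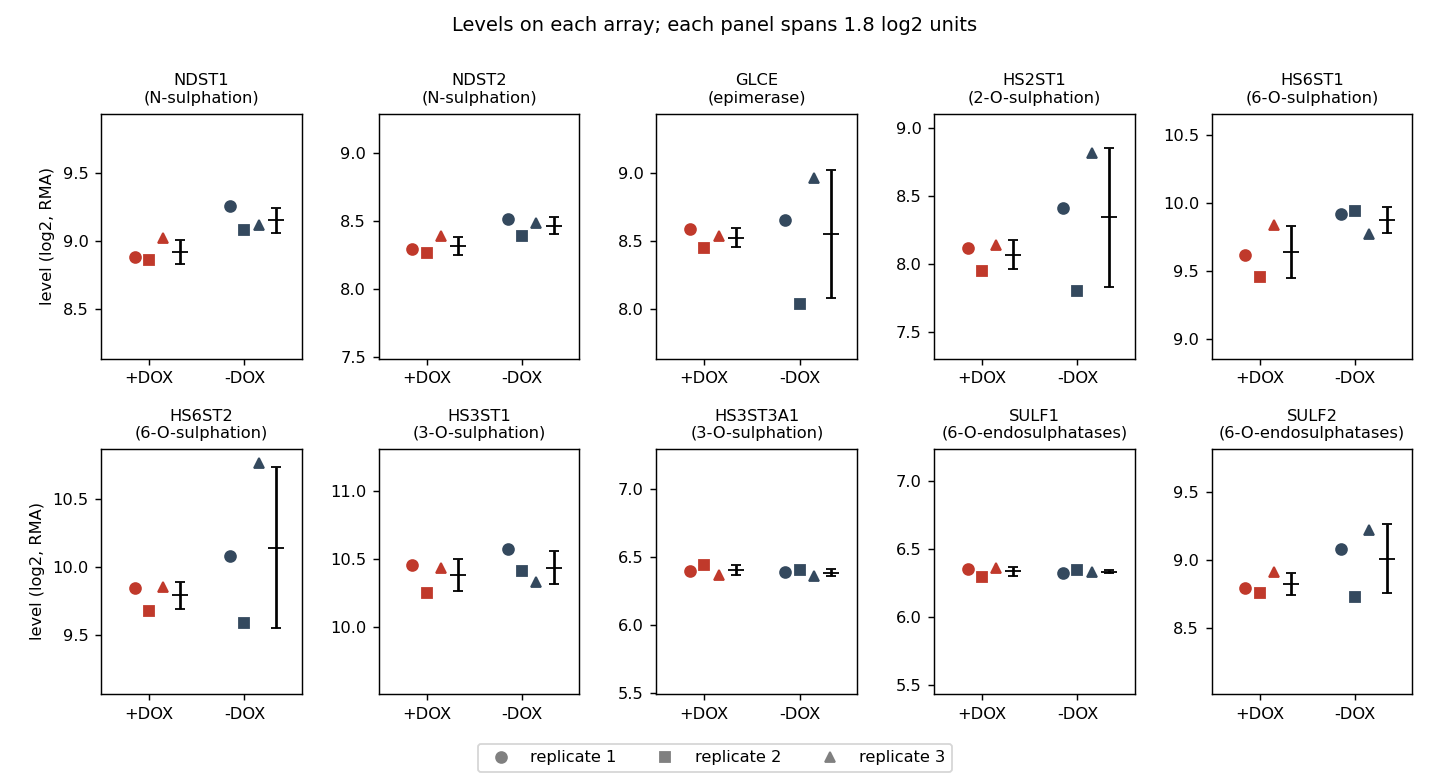
Level of each of the 10 genes on each array (log2, RMA; +DOX left, -DOX right; marker shape gives the replicate number; bar shows mean and SD, n = 3). The NDST1 and NDST2 groups do not overlap, while the -DOX arrays of GLCE, HS2ST1, HS6ST2 and SULF2 spread wider than the +DOX arrays, with replicate 3 at the top and replicate 2 at the bottom.

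Among the 10 genes, NDST1 and NDST2 were those whose groups did not overlap. The other 8 overlapped, as did 1060 of all 1259 probe sets. Over all probe sets 8.26% had every +DOX array below every -DOX array, and 7.55% had every one above. NDST1, which in most tissues does the larger part of N-sulphation, read 8.88, 8.86 and 9.02 on the +DOX arrays and 9.26, 9.08 and 9.12 on the -DOX arrays. All 3 +DOX arrays were below all 3 -DOX arrays, the closest being replicate 3 of +DOX and replicate 2 of -DOX. The means were 8.92 ± 0.09 and 9.15 ± 0.09 (SD, n = 3 each), a difference of -0.23 log2 units (SE 0.07, 95% confidence interval -0.40 to -0.06), or 1.17-fold lower with doxycycline. It did not pass the threshold of 0.05 (limma, adjusted p = 0.477), and the exact two-sided permutation p was 0.1, the smallest that 3 arrays against 3 can give.

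NDST2, the related enzyme known from mice to act in heparin synthesis by mast cells, read 8.29, 8.27 and 8.39 on the +DOX arrays and 8.51, 8.39 and 8.49 on the -DOX arrays. The groups were separated only by the gap between 8.387 (+DOX replicate 3) and 8.392 (-DOX replicate 2), which is far smaller than the SD of 0.06 within either group. The difference was -0.15 log2 units (SE 0.05, 95% confidence interval -0.28 to -0.02; limma, adjusted p = 0.562; exact permutation p = 0.1). Both N-sulphotransferase differences were close to these values without replicate 3 of the -DOX group (-0.25 for NDST1 and -0.14 for NDST2). Across every array left out in turn and every other setting tried, NDST1 stayed between -0.32 and -0.18 and NDST2 between -0.19 and -0.12, and neither passed.

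Activin receptors signal through SMAD proteins, whose short DNA element is GTCT, and the promoter windows of this pair are shown because, of the 10 genes, only these were separated by group. Neither difference passed the threshold, and whether SMAD proteins act on either gene in these cells was not tested. The windows are RefSeq's, on GRCh38.p14, from 250 bases before to 50 bases after the gene's start, and each match to GTCT on either strand is in capitals. For NDST2, which has 2 windows, the one that starts furthest upstream is shown. NDST1 lies at chr5:150497529-150497828 on the plus strand and NDST2 at chr10:73811771-73812070 on the minus strand.
NDST1: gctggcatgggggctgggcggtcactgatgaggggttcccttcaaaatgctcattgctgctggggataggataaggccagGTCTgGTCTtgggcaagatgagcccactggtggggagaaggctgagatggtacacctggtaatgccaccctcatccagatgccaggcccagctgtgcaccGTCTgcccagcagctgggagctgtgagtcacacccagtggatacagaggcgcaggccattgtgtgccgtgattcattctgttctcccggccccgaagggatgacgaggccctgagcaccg
NDST2: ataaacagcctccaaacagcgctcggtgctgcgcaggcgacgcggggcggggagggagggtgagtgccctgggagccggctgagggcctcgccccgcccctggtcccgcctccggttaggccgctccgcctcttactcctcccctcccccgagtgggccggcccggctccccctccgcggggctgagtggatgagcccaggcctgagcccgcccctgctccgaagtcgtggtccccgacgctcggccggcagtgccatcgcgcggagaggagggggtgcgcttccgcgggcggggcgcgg

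The NDST1 window holds 3 matches to GTCT and the NDST2 window 0. Of 35116 promoter windows of the same length 84.0% hold at least 1 match and the median window holds 2, so the element is common. The palindrome of 8 letters, GTCTAGAC, was in neither window and in 0.202% of all windows. The NDST2 window has 4 matches to the GC box GGGCGG on either strand and is 76.0% G and C, and the NDST1 window has 1 match and is 60.7% G and C. The GC box was in 45.0% of all windows, and their median G and C content was 58.7%. A window was found for 9 of the 10 genes. Among these the window of HS6ST2, with 5 matches to GTCT, no GC box and 47.3% G and C, had the lowest G and C content, and that of HS6ST1, with 3 matches to GTCT, 7 GC boxes and 79.7%, the highest.

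GLCE, the epimerase that makes the iduronic acid on which 2-O-sulphation depends, read 8.59, 8.45 and 8.54 on the +DOX arrays and 8.66, 8.04 and 8.96 on the -DOX arrays. The 3 +DOX arrays lay inside the range of the -DOX arrays, which spanned 0.92 log2 units. The difference was -0.03 log2 units with a 95% confidence interval from -0.61 to 0.55 (limma, adjusted p = 0.984; exact permutation p = 0.9). The value followed single arrays: it was 0.18 without replicate 3 of the -DOX group and -0.28 without replicate 2 of that group.

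HS2ST1, the single 2-O-sulphotransferase of heparan sulphate, read 8.12, 7.94 and 8.14 on the +DOX arrays and 8.41, 7.80 and 8.81 on the -DOX arrays. Again the -DOX arrays enclosed the +DOX arrays, over a range of 1.01 log2 units. The difference of -0.27 log2 units (SE 0.26, 95% confidence interval -0.91 to 0.36) was smaller than the SD of 0.51 within the -DOX group (limma, adjusted p = 0.730; exact permutation p = 0.5). Without replicate 3 of the -DOX group it was -0.04, and without replicate 2 it was -0.54.

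The 6-O-sulphotransferases both had lower means with doxycycline, and neither passed. HS6ST1 read 9.62, 9.46 and 9.84 on the +DOX arrays and 9.92, 9.94 and 9.77 on the -DOX arrays. The groups overlapped only through replicate 3 of each, since +DOX replicate 3 was above -DOX replicate 3. The +DOX arrays averaged -0.24 log2 units relative to the -DOX arrays (SE 0.11, 95% confidence interval -0.51 to 0.03; limma, adjusted p = 0.675; exact permutation p = 0.2). Here the +DOX group spread wider, with an SD of 0.19, against 0.09 in the -DOX group. The value was -0.14 without replicate 2 and -0.34 without replicate 3 of the +DOX group.

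HS6ST2 read 9.84, 9.68 and 9.85 on the +DOX arrays and 10.08, 9.59 and 10.76 on the -DOX arrays. Its -DOX replicate 3 was the highest and its -DOX replicate 2 the lowest of the 6 arrays, a gap of 1.18 log2 units. The difference of -0.35 log2 units (SE 0.29, 95% confidence interval -1.08 to 0.38) was the largest in size of the 10 genes (limma, adjusted p = 0.730; exact permutation p = 0.5). It was -0.04 without replicate 3 of the -DOX group and -0.63 without replicate 2 of that group, where HS6ST1 was at -0.29 and -0.20.

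Among the 3-O-sulphotransferases, HS3ST1, which makes the antithrombin-binding site of heparan sulphate, read 10.46, 10.25 and 10.44 on the +DOX arrays and 10.57, 10.41 and 10.33 on the -DOX arrays. The groups overlapped, with a difference of -0.06 log2 units (95% confidence interval -0.27 to 0.16; limma, adjusted p = 0.835; exact permutation p = 0.6). HS3ST3A1, whose 3-O-sulphated chains can serve as an entry receptor for herpes simplex virus, read 6.40, 6.44 and 6.37 on the +DOX arrays and 6.39, 6.40 and 6.36 on the -DOX arrays. Its difference was 0.02 log2 units (95% confidence interval -0.07 to 0.11; limma, adjusted p = 0.866; exact permutation p = 0.5), from a probe set under the lower quartile of the table.

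SULF2, an endosulphatase often studied in tumours, read 8.80, 8.76 and 8.91 on the +DOX arrays and 9.08, 8.73 and 9.22 on the -DOX arrays. Replicates 1 and 3 of the -DOX group were above every +DOX array and replicate 2 was below every one of them. The difference was -0.19 log2 units (SE 0.13, 95% confidence interval -0.52 to 0.14; limma, adjusted p = 0.715; exact permutation p = 0.4), and it was -0.08 without replicate 3 and -0.33 without replicate 2 of the -DOX group. SULF1 read 6.35, 6.30 and 6.36 on the +DOX arrays and 6.32, 6.35 and 6.33 on the -DOX arrays. Its difference of 0.0015 log2 units had a 95% confidence interval from -0.08 to 0.09 (limma, adjusted p = 0.992; exact permutation p = 0.9), again from a dim probe set.

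**Figure D2:**
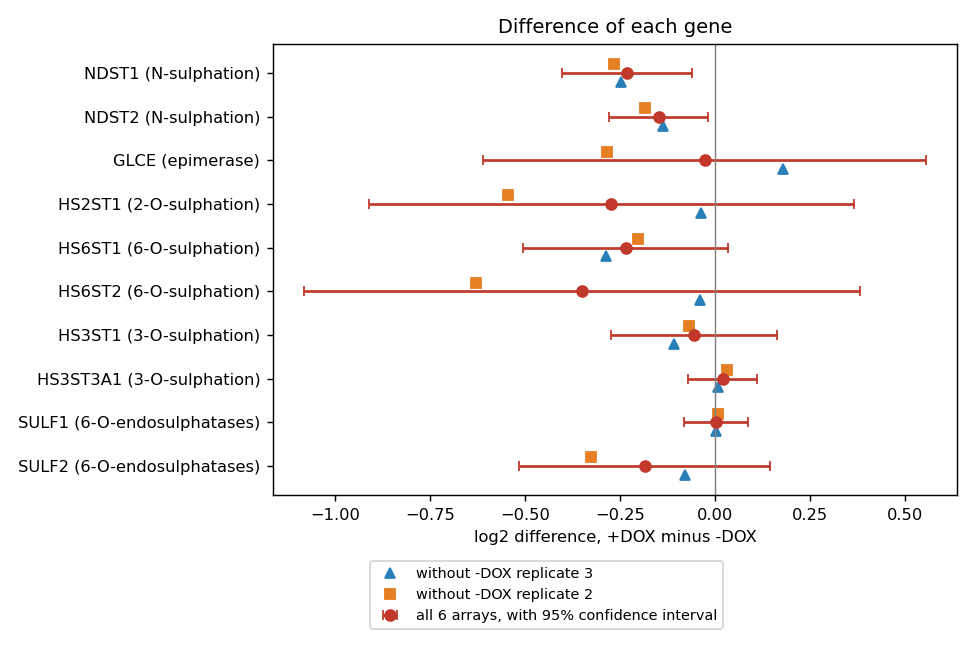
Difference of each gene (+DOX minus -DOX, log2 units) with its 95% confidence interval from limma over all 6 arrays, and the value without -DOX replicate 3 (triangles) or replicate 2 (squares). The intervals of NDST1 (-0.40 to -0.06) and NDST2 (-0.28 to -0.02), which are not adjusted for 1259 probe sets, lie below 0, and the values of GLCE, HS2ST1 and HS6ST2 shift most when either -DOX array is left out.

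By modification step, the mean over a step's genes differed by -0.19 log2 units for N-sulphation, -0.27 for 2-O-sulphation, -0.29 for 6-O-sulphation and -0.02 for 3-O-sulphation. It was -0.03 for the epimerase and -0.09 for the endosulphatases. The 3-O-sulphation mean joins HS3ST1 (-0.06) with the dim probe set of HS3ST3A1 (0.02). That of the endosulphatases joins SULF2 (-0.19) with the dim probe set of SULF1 (0.0015). Without replicate 3 of the -DOX group the step differences were -0.19 for N-sulphation, -0.04 for 2-O-sulphation, -0.16 for 6-O-sulphation, -0.05 for 3-O-sulphation, 0.18 for the epimerase and -0.04 for the endosulphatases. Without replicate 2 of that group they were -0.23 for N-sulphation, -0.54 for 2-O-sulphation, -0.42 for 6-O-sulphation, -0.02 for 3-O-sulphation, -0.28 for the epimerase and -0.16 for the endosulphatases. The N-sulphation value thus moved little with either array, and the 2-O, 6-O, epimerase and endosulphatase values moved in opposite directions. In the 6-O pair this came from HS6ST2 (-0.04 without replicate 3, -0.63 without replicate 2), since HS6ST1 was at -0.29 and -0.20. In the endosulphatase pair it came from SULF2 (-0.08 and -0.33), since SULF1 was at 0.0006 and 0.0075. The differences between steps were not tested.

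Taking the 10 genes as a list, 8 had lower and 2 higher values with doxycycline, and the median difference was -0.17 log2 units. Over the 927 named genes 55.2% had lower values and the median was -0.01. The other 8 measured genes of the same enzyme families had 3 lower and 5 higher values, with a median of 0.005. All 8 lay under the median level of the array. The 10 genes were chosen with earlier results of these data known, so their share is not a result for the enzyme class. By limma's adjusted p, 0 of the 10 genes and 0 of 1259 probe sets (0%) passed 0.05, and the lowest adjusted p on the array was 0.158. Without adjustment 98 probe sets had a p under 0.05, among them 2 of the 10 genes, NDST1 and NDST2. Both were lower, as were 4.53% of all probe sets at that level. All 3 +DOX arrays were below all 3 -DOX arrays for the same pair, against 8.26% of all probe sets, and above them for 0 genes, against 7.55%. The count followed single arrays. Without replicate 2 of the -DOX group 6 of the 10 genes were lower at an unadjusted p under 0.05 (limma), among them GLCE, HS2ST1, HS6ST2 and SULF2, beside 14.5% of all probe sets. With array weights it was 4 of 10, beside 13.7%. It was 3 of 10 without replicate 3 of the +DOX group (3.89% of all probe sets) and when quantile normalized again (4.05%). Only NDST1, 1 of 10, remained without replicate 1 (3.34%) or without replicate 3 (5.64%) of the -DOX group. It was 0 of 10 without replicate 1 of the +DOX group (1.83% of all probe sets), without replicate 2 of that group (2.46%) and with an intensity trend in the variance prior (4.69%). None of these settings gave a member an adjusted p under 0.05, and no test of the list's share was made. Without replicate 3 of the -DOX group the list's median was -0.06, with 7 genes lower and 3 higher, and without replicate 2 of that group it was -0.24.

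Within the -DOX group the genes split by how far its arrays lay apart. For GLCE, HS2ST1, HS6ST2 and SULF2 replicate 3 was highest and replicate 2 lowest, by 0.92, 1.01, 1.18 and 0.49 log2 units. That order held for 4 of the 10 genes and for 21.5% of all probe sets. Over all probe sets, whatever their order, the gap between these arrays had a median size of 0.138 log2 units. The same 4 genes were those whose +DOX arrays all lay within the range of the -DOX arrays, which 33.4% of probe sets did. For NDST1, NDST2, HS6ST1 and HS3ST1 the gap between replicates 3 and 2 was 0.04, 0.09, -0.17 and -0.08 log2 units. The SD of HS6ST2 in the -DOX group (0.59) was larger than that of 98.6% of all probe sets, that of HS2ST1 (0.51) larger than 96.5%, that of GLCE (0.47) larger than 94.7% and that of SULF2 (0.25) larger than 80.1%. For NDST1 and NDST2 the corresponding shares were 50.4% and 36.1%.

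**Figure D3:**
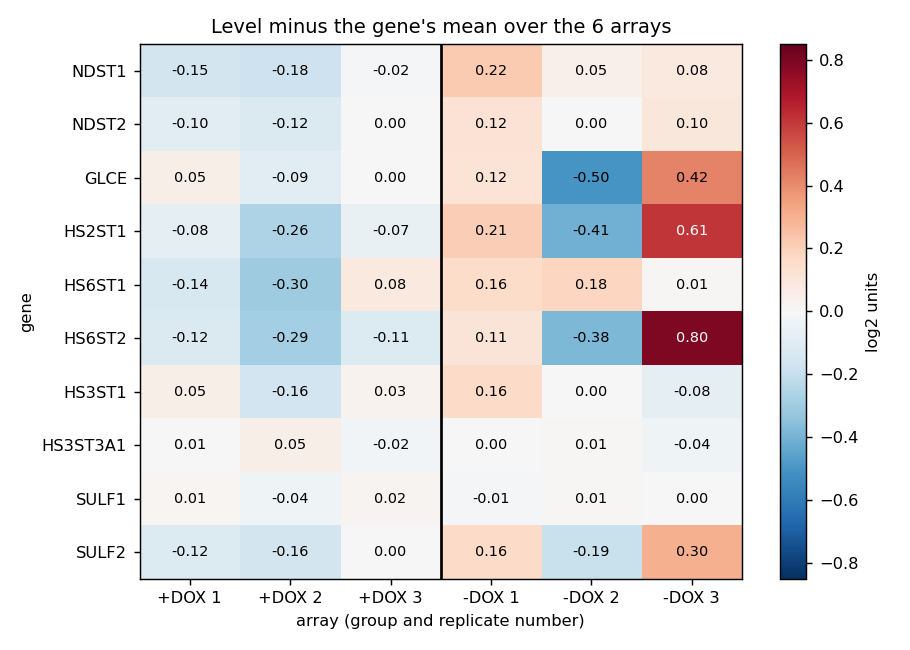
Level of each gene on each array minus the gene's mean over the 6 arrays (log2 units; red higher, blue lower; +DOX arrays left of the line, -DOX arrays right). In the -DOX group HS6ST2 runs from -0.38 on replicate 2 to 0.80 on replicate 3, and NDST1 from 0.05 on replicate 2 to 0.22 on replicate 1.

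**Figure D4:**
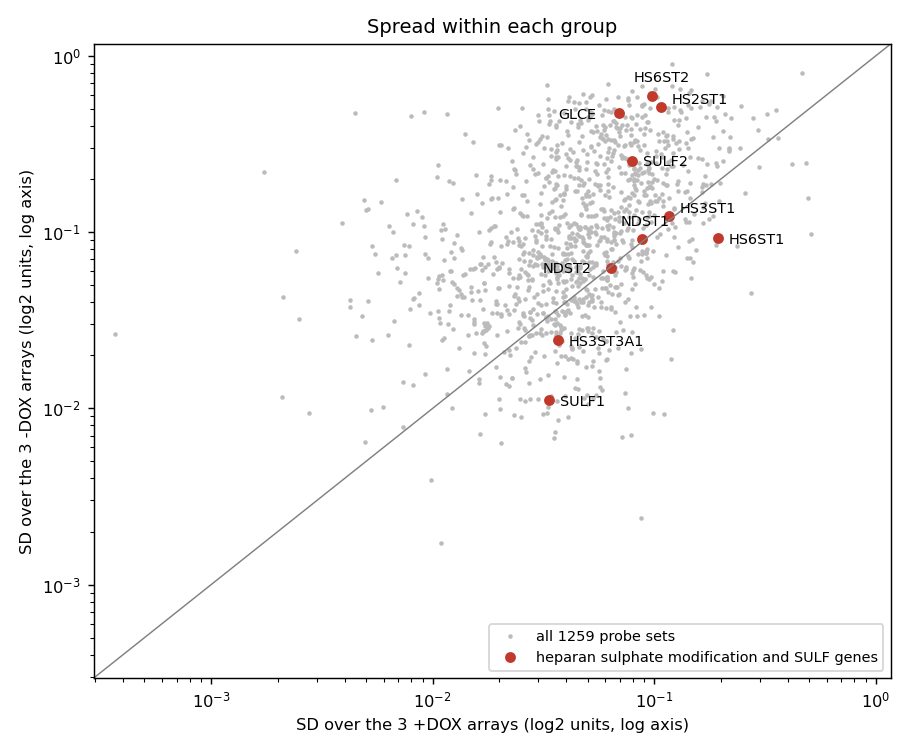
SD over the 3 +DOX arrays (x axis) against the SD over the 3 -DOX arrays (y axis), in log2 units on log axes, for all 1259 probe sets (grey) and the 10 genes (red). The line marks equal spread: HS6ST2, HS2ST1, GLCE and SULF2 sit far above it, NDST1, NDST2 and HS3ST1 near it, and HS6ST1, HS3ST3A1 and SULF1 below it.

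In the +DOX group replicate 2 gave the lowest value for 9 of the 10 genes, HS3ST3A1 being the exception, while it was the lowest of its group for 39.0% of all probe sets. The +DOX range was 0.16 log2 units for NDST1, 0.12 for NDST2, 0.14 for GLCE, 0.19 for HS2ST1, 0.17 for HS6ST2, 0.21 for HS3ST1 and 0.15 for SULF2. The median +DOX SD of the 10 genes was 0.0838 log2 units, against 0.0457 over all probe sets. Related genes had similar medians: 0.0792 for enzymes that start and extend the chain, 0.0748 for core proteins and 0.0891 for breakdown enzymes. Lower medians were seen for sulphate donor supply (0.0310) and for the other genes of the same enzyme families (0.0257). The range was widest for HS6ST1, at 0.38, whose +DOX SD was larger than that of 97.6% of probe sets. The -DOX SD exceeded the +DOX SD for 6 of the 10 genes and for 77.1% of all probe sets.

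The other 8 genes of the same enzyme families had mean levels from 6.33 to 7.54, all under the median over all probe sets and 5 of them under the lower quartile. Their differences lay between -0.02 and 0.04 log2 units, with 5 higher and 3 lower, and all 8 had overlapping groups. NDST4, an N-sulphotransferase, read 6.48, 6.51 and 6.49 on the +DOX arrays and 6.48, 6.40 and 6.50 on the -DOX arrays (difference 0.03 log2 units; limma, adjusted p = 0.755). The 6-O-sulphotransferase HS6ST3 and the 3-O-sulphotransferase HS3ST4 differed by 0.04 and 0.02 log2 units (limma, adjusted p = 0.779 and 0.869).

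Of the enzymes that start and extend the chain 10 were measured, of which 6 had lower and 4 higher values with doxycycline, with a median of -0.07 log2 units and 0 past the threshold. EXTL3, which adds the first N-acetylglucosamine of a heparan sulphate chain, read 9.90, 9.79 and 10.02 on the +DOX arrays and 10.12, 10.09 and 10.08 on the -DOX arrays. Its groups did not overlap, and the difference was -0.19 log2 units with all arrays (SE 0.07; limma, adjusted p = 0.562). It was -0.20 without replicate 3 of the -DOX group, and -0.13 and -0.25 without replicate 2 or 3 of the +DOX group. Of these 10 enzymes only EXTL3 had every +DOX array below every -DOX array, as had 8.26% of all probe sets. EXT1, a subunit of the chain polymerase, was at -0.16 and overlapped, and B3GALT6, which adds the second galactose of the linker, was at -0.10 and overlapped (limma, adjusted p = 0.730 for each). EXT1 was at -0.08 without replicate 3 and -0.29 without replicate 2 of the -DOX group. B3GALT6 was at -0.18 without replicate 3 and -0.06 without replicate 1 of that group, and at -0.06 without replicate 2 of the +DOX group. The list had 8 lower and 2 higher values without -DOX replicate 3.

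Of the genes that supply the sulphate donor PAPS, 4 were measured, 2 higher and 2 lower. PAPSS2, a PAPS synthase, read 10.38, 10.37 and 10.44 on the +DOX arrays and 10.54, 10.07 and 11.02 on the -DOX arrays, so that here too replicate 3 was highest and replicate 2 lowest without doxycycline. PAPSS1, the other synthase, read 11.73, 11.74 and 11.70 on the +DOX arrays and 11.79, 11.54 and 12.05 on the -DOX arrays, in the same order. Their differences were -0.15 and -0.07 log2 units and turned to 0.09 and 0.06 without replicate 3 of the -DOX group (limma with all arrays, adjusted p = 0.835 and 0.865). SLC35B3, a transporter that carries PAPS into the Golgi, was at 0.07 (limma, adjusted p = 0.818), and at 0.17 and -0.04 without replicate 1 or 2 of the -DOX group. Without replicate 2 PAPSS2 and PAPSS1 were at -0.38 and -0.19.

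Core proteins that carry the chains had 6 of 12 higher and 6 lower values, with 0 past the threshold. The basement membrane proteoglycan gene AGRN was at -0.29 log2 units (SE 0.16; limma, adjusted p = 0.692), with overlapping groups, and ran from -0.43 to -0.20 with 1 -DOX array left out (replicate 1 or 2). GPC6, a glypican with a dim probe set, was at 0.09 with separated groups, and the syndecan SDC3 was at 0.09 with overlapping groups (limma, adjusted p = 0.675 and 0.702). SDC3 was at 0.06 without replicate 3 of the -DOX group or replicate 2 of the +DOX group.

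Among enzymes that break heparan sulphate down, 4 of 8 were higher and 4 lower, with 0 past the threshold. IDS, the lysosomal sulphatase that removes the 2-O-sulphate of iduronic acid, read 10.12, 10.12 and 9.92 on the +DOX arrays and 9.62, 9.86 and 9.44 on the -DOX arrays. Its groups did not overlap, with +DOX higher by 0.41 log2 units (SE 0.12; limma, adjusted p = 0.477), or 0.31 without replicate 3 of the -DOX group. Heparanase, encoded by HPSE, was at 0.15 and the iduronidase gene IDUA at -0.22, both with overlapping groups (limma, adjusted p = 0.669 and 0.682). IDUA was at -0.13 without replicate 2 of the -DOX group.

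**Figure D5:**
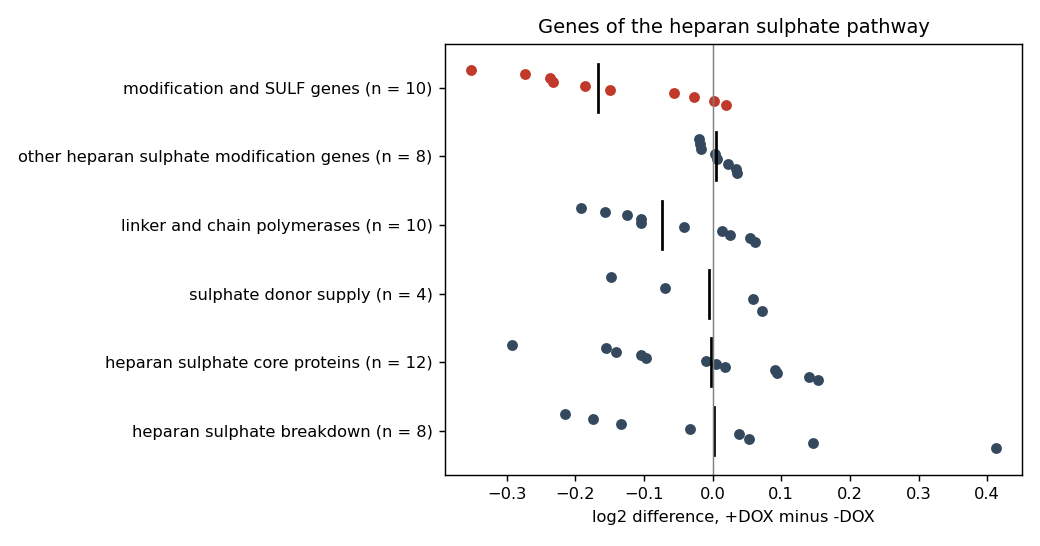
Difference of each measured gene (+DOX minus -DOX, log2 units) by list, with the list's median as a black bar and the 10 modification and SULF genes in red at the top. The red genes lie between -0.35 and 0.02 around a median of -0.17, and the other lists have medians from -0.07 to 0.01.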

How the data were processed

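The authors deposited log2 values of 1259 probe sets for each of 6 arrays. They were made by RMA (no version given), per the submitters' processing notes. The input was 0.5 µg of total RNA per the labels' protocols. No scanner files were analysed here. A symbol was given to a probe set by matching the RefSeq accession in its identifier, version dropped, to RefSeq's genes for GRCh38.p14: 1043 (82.8%) had 1 symbol, 190 carried no accession and 26 an accession outside the table.

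All probe sets were fitted with limma 3.58.1 in R 4.3.3 (group means, two-sided, Benjamini-Hochberg over 1259, threshold 0.05), with an exact permutation test of 3 arrays against 3 for single genes. Where a gene had more than 1 probe set, the brightest over the 6 arrays stood for it. Precision is limited by the number of arrays, and 95% confidence intervals had a median half-width of 0.152 log2 units. The fit was tested on simulated data in which a probe set had the same spread in both groups. The real groups differ in spread, so that test does not show how the fit behaves on them.

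Members and lists were chosen with earlier results of these data known. The text names every member, ACVR2A, up to 3 genes of each other list by smallest p, and the highest and lowest markers. SDs are over 3 arrays. The labels do not say that a shared replicate number marks a culture, batch or day, so the numbers were not taken as pairs. Deviations of arrays with the same number correlated at -0.15, -0.04 and -0.16, which with 3 arrays in a group cannot show that pairing is absent.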

Additional observations from a re-analysis of the deposited data

How the results depend on the processing

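The 10 genes were refitted with a replicate block, without each array in turn, with each array centred on its median or quantile normalized again, with array weights, with an intensity trend in the variance prior and without dim probe sets. In 0 of these settings did a member pass an adjusted p of 0.05 with limma. NDST1, NDST2, HS2ST1, HS6ST1, HS6ST2 and SULF2 kept their sign throughout, with HS2ST1 and HS6ST2 at -0.04 each without -DOX replicate 3. The replicate block, the intensity trend and leaving out dim probe sets do not alter a difference, so no sign could turn there. For NDST1 and NDST2 leaving out an array could not turn the sign either, since their groups do not overlap. HS3ST3A1, with a dim probe set, also kept its sign, but barely, at 4.57e-05 log2 units without +DOX replicate 2. GLCE turned to 0.016 when quantile normalized again. With 1 array left out, GLCE ran from -0.28 to 0.18 (0.0098 without +DOX replicate 2, 0.024 without -DOX replicate 1, 0.18 without -DOX replicate 3), HS3ST1 from -0.109 to 0.0113 (0.0111 without +DOX replicate 2, 0.0113 without -DOX replicate 1) and SULF1 from -0.0105 to 0.0207 (-0.0055 without +DOX replicate 1, -0.0105 without +DOX replicate 3, -0.0034 without -DOX replicate 1). The cause was not tested.

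Leaving out 1 array, the list's median ran from -0.24 to -0.06 and the number of higher genes from 1 (without +DOX replicate 1 or 3) to 4 (without +DOX replicate 2), against 2 with all arrays. Without dim probe sets 0 of the 8 members fitted were higher, since the 2 higher ones, HS3ST3A1 and SULF1, are not fitted. The count of probe sets past the threshold was 0, also with the replicate block and with each array left out; at an unadjusted p under 0.05 limma gave 98 with all arrays, 81 with the replicate block, 258 without -DOX replicate 2, 246 with array weights, 45 without +DOX replicate 1 and 53 without +DOX replicate 2. With array weights 1 probe set passed, not a member. Each replicate number has 1 array in each group, so a replicate block cannot alter a difference and the list's median of -0.17 had to stay. Only the p-values could move, and no call changed.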
